A study of Mus musculus with 36 samples.

Results

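The stretch of mouse chromosome 1 described here runs from 45340000 to 45580000 in build mm9, 240 kb in all, and holds Col3a1 and Col5a2, 2 genes of fibrillar collagens that lie next to each other. Its members are all the accessible regions of the deposited count table that overlap this interval, 274 of 1393120 regions. The interval was chosen by measured values, because regions between both genes were among those that differed most between reprogramming cells and fibroblasts in an earlier look at the same libraries. Differences from fibroblasts are therefore given as a description, each region's with a standard error and no p-value of its own, and counts of calls stand beside their share over all regions. By the rule, Col3a1 lies from about 45368400 to 45406600 and is read towards higher positions, and Col5a2 lies from about 45431000 to 45560000 with its promoter at the high end, so the 2 genes end towards each other with 24.4 kb between them.

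Col3a1 encodes the chain of type III collagen, a homotrimer, and Col5a2 encodes 1 of the chains of type V collagen, which sits inside collagen fibrils and limits their width. Fibrillar collagens are secreted as procollagens, trimmed outside the cell and assembled into the fibres that give heart tissue its tensile strength. Fibroblasts are their main source in the heart, while cardiomyocytes make little of them. ATAC-seq (a transposase that cuts and tags open DNA) reads how accessible such a locus is, and not how much RNA it makes.

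Accessibility was measured in 18 libraries, 3 biological replicates in each of 6 groups, of cells from neonatal mouse hearts of strain Cd-1 and genotype alpha-MHC-GFP, a reporter in which a cardiac myosin promoter drives a green fluorescent protein. In all groups the starting cells grew out of heart explants over about 10 days and were sorted as Thy1+ and reporter-negative, which the labels call largely fibroblasts and not a pure population. The control fibroblasts carried a dsRed retrovirus, received no inhibitor and were sorted as dsRed+ at day 7. The other 5 groups carried retroviruses for Gata4, Mef2c and Tbx5 (GMT), factors that turn fibroblasts towards cardiomyocytes, received sb431542 and xav939, inhibitors of Tgfβ and Wnt signalling, and were sorted as alpha-MHC-GFP+ at day 2, 3, 7, 14 or 21. The factors, the inhibitors and the sort cannot be told apart in any comparison with the fibroblasts, and neither can time in culture except at day 7. Another 18 labelled samples were not analysed here.

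The libraries held between 2.29 and 23.2 M counts each, with 567 to 3456 counts in the locus. A single region elsewhere on chromosome 1 took 4.52 to 49.4% of a library's counts, and 49.4, 49.3 and 14.5% in fibroblast replicates 1, 2 and 3. Levels below are in CPM, counts scaled to the depth of each library, with depths corrected by trimmed means of log ratios (TMM), in which a single region has little weight. A single read was worth 0.0418 to 0.36 CPM, depending on the library. Fibroblast replicates 1 and 2 were the closest pair of replicates (chi-square per degree of freedom 1.36, against up to 4.68 in other pairs) and were counted as 2 samples, and whether they came from separate cultures was not tested. Replicate 1 of day 2 and replicate 1 of day 3 stood apart from all others in the earlier look, and results that change without them are given with both values. Labels name 2 sequencing cores without assigning libraries to them, so a core effect was not tested.

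Of the 2 genes, Col3a1 was matched by symbol among the promoters of RefSeq, and Col5a2 was not. The Col3a1 promoter is shown because the region at this gene's start is 1 of those described below. The 250 bases before its start, taken from RefSeq (GRCm38.p6, chr1:45311288-45311537, + strand, positions that are not comparable with those of mm9), read as follows, with the motifs found on either strand in capitals.
Col3a1: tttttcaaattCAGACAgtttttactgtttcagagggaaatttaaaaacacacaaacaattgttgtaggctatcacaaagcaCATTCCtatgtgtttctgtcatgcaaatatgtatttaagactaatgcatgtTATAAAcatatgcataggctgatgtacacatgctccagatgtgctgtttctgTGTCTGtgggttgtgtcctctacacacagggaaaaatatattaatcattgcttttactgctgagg
The motif TATAAA began 117 bases before the start, and 12.4% of 32851 promoters of the same length held it on either strand. CAGACA, which holds the short element that Smad proteins bind, began 239 bases before the start and, read on the opposite strand as TGTCTG, at 65 bases, and 17.1% of promoters held it. GGAATG, read here as CATTCC and known as a motif of TEAD factors, began at 168 bases, and 12.6% of promoters held it. The 5 other motifs searched on both strands were CCAAT (the box of NF-Y), GGGCGG (a box that Sp factors bind), TGACTCA (the site of AP-1), CAGCTG (an E-box) and GATAAG (a site of GATA factors), and their letters are not in this window. Of the promoters, 33.8, 32.7, 4.46, 13 and 6.55% held them. These matches are a description of the letters and not of binding. The window was 35.2% G and C, against a median of 52.4% over the promoters of the table.

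Over the whole locus, fibroblasts held 315, 301 and 282 summed CPM, and the 15 GMT libraries held from 120 to 182, with a median of 130. The highest GMT library, day 2 replicate 1, was thus well below the lowest fibroblast library. Group means were 299 ± 16.8 CPM (SD, n = 3) in fibroblasts, 143 ± 34.3 at day 2, 133 ± 14.7 at day 3, 131 ± 10 at day 7, 134 ± 12.3 at day 14 and 130 ± 7.04 at day 21. The level was 47.8% of that of fibroblasts at day 2 and between 43.4 and 44.9% at days 3 to 21, so most of the difference was already there at the earliest time. With library totals in place of TMM scaling the log2 ratio was -0.51 at day 2 and -0.71 at day 21, in place of -1.07 and -1.2, and the median of all tested regions moved to 0.63 and 0.66. The day 2 mean rested in part on replicate 1, at 182 against 126 and 121 CPM in replicates 2 and 3. In bulk libraries, fewer cells with an open locus and less accessibility per cell cannot be told apart.

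**Figure D1:**
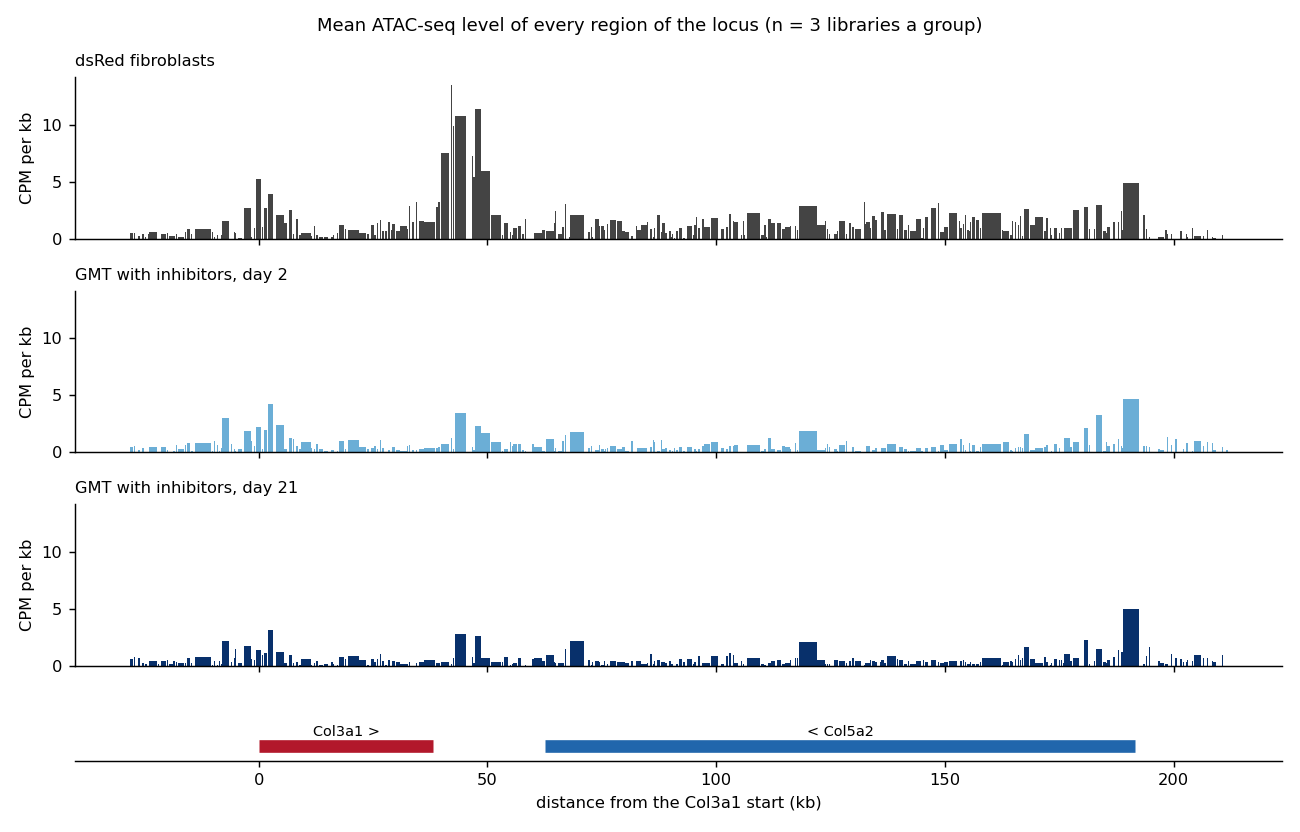
Mean CPM per kb (vertical axis) of every region of the locus by group (rows, n = 3 libraries each) against the distance from the Col3a1 start in kb (horizontal axis), with the extent of both genes in the bottom row. The tallest signal of the fibroblasts lies between the ends of both genes, and the signal at the Col5a2 start is of like height in all rows.

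The size of the difference can be set beside the rest of the table. Among 4311 windows of 240 kb with at least 10 tested regions, the median log2 ratio to fibroblasts ran from -0.19 at day 2 to -0.05 at day 14, and the locus was at -1.07 and -1.16. From 1 to 4 windows were as low or lower, the locus's own included, which describes how it was chosen. Its fibroblast level was above that of 91.3% of windows, whose median was 147 CPM. The 240 kb on the lower side of the interval held 65.6 ± 1.34 CPM in fibroblasts and 57.3 to 68.3 on average in the GMT groups. The 240 kb on the higher side went from 132 ± 8.09 CPM to between 95.2 and 107, log2 ratios of -0.47 to -0.31. With library totals alone these ran from -0.37 to 0.15, and those of the lower side from -0.03 to 0.53.

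The difference was uneven along the locus. This is a description, since regions between the genes were among those by which the locus was chosen. Between the genes, 23 regions over 18.6 kb held 94.2, 84 and 78.9 CPM in fibroblasts and 13.9 to 23.4 CPM in the 15 GMT libraries, which do not overlap. The means were 85.7 ± 7.8 CPM in fibroblasts, 21.7 ± 1.48 at day 2 and 16.3 ± 0.911 at day 21, which is 25.3 and 19.1% of the fibroblast level. This stretch made up 10.6% of the covered bases of the locus. It took 28.6 ± 1.12% of its signal in fibroblasts (SD, n = 3), from 27.9 to 29.9%, and 15.6 ± 2.46% at day 2, 14.7 ± 0.226% at day 3, 14.2 ± 1.93% at day 7, 12.3 ± 1.8% at day 14 and 12.6 ± 0.973% at day 21. Per kb covered, the fibroblast level there was 4.6 CPM, against 1.35 over Col3a1 and 1.58 over Col5a2, and at day 21 the 3 values were 0.876, 0.651 and 0.776. The stretch that stood highest in fibroblasts was thus closer to both genes at day 21. At day 2 it still held 1.16 CPM per kb, against 0.866 over Col3a1 and 0.775 over Col5a2.

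Over Col3a1, 41 regions summed to 38.8, 40.5 and 39.3 CPM in fibroblasts and to 17.4 to 34.6 in the GMT libraries. The mean was 39.5 ± 0.883 CPM in fibroblasts, 25.3 ± 8.04 at day 2, 21.2 ± 2.64 at day 3, 19 ± 1.59 at day 7, 22.5 ± 3.8 at day 14 and 19 ± 0.391 at day 21. The wide spread at day 2 came from replicate 1, at 34.6 CPM against 21.2 and 20.2. Over Col5a2, 154 regions summed to 165, 161 and 145 CPM in fibroblasts and to 61.9 to 102 in the GMT libraries. Its means were 157 ± 10.4 CPM in fibroblasts and 75.2 to 77.7 at the 5 days, log2 ratios of -1.06 to -1.01. Here too day 2 replicate 1 was highest, at 102 CPM against 66.7 and 61.9 in replicates 2 and 3. With TMM scaling, neither gene's GMT libraries reached the fibroblast range. With library totals alone the day 21 log2 ratios were -0.57 over Col3a1 and -0.53 over Col5a2, in place of -1.05 and -1.03. Overlap of single libraries was not examined under that scaling.

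The sums at both ends of the interval did not show this difference. Before Col3a1, 33 regions summed to 13.7 ± 1.3 CPM in fibroblasts and 12.1 to 14.6 on average in the GMT groups, and the libraries overlapped, at 12.7 to 15.1 and 10.7 to 17.9 CPM. A single region there, 45365209 to 45366649, was lower in every GMT library (1.03 to 2.9 CPM) than in any fibroblast library (3.47 to 4.32 CPM) and was called lower at days 3 and 7 (log2 difference -1.1, SE 0.37, and -0.98, SE 0.36). Beyond the Col5a2 start, 23 regions held 3.5 ± 0.875 CPM in fibroblasts and between 3.45 and 5.25 in the GMT groups. At day 21 the log2 ratios were -0.05 before Col3a1 and 0.39 beyond the Col5a2 start, and with library totals alone they were 0.39 and 0.9. The regions just inside the interval, 45340266 to 45340925 and 45579729 to 45580171, had group means of at most 1.06 CPM, as had the nearest ones outside it, 45339633 to 45339833 and 45581154 to 45581874, at most 0.562. The interval thus ends in DNA with little signal in any group.

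**Figure D2:**
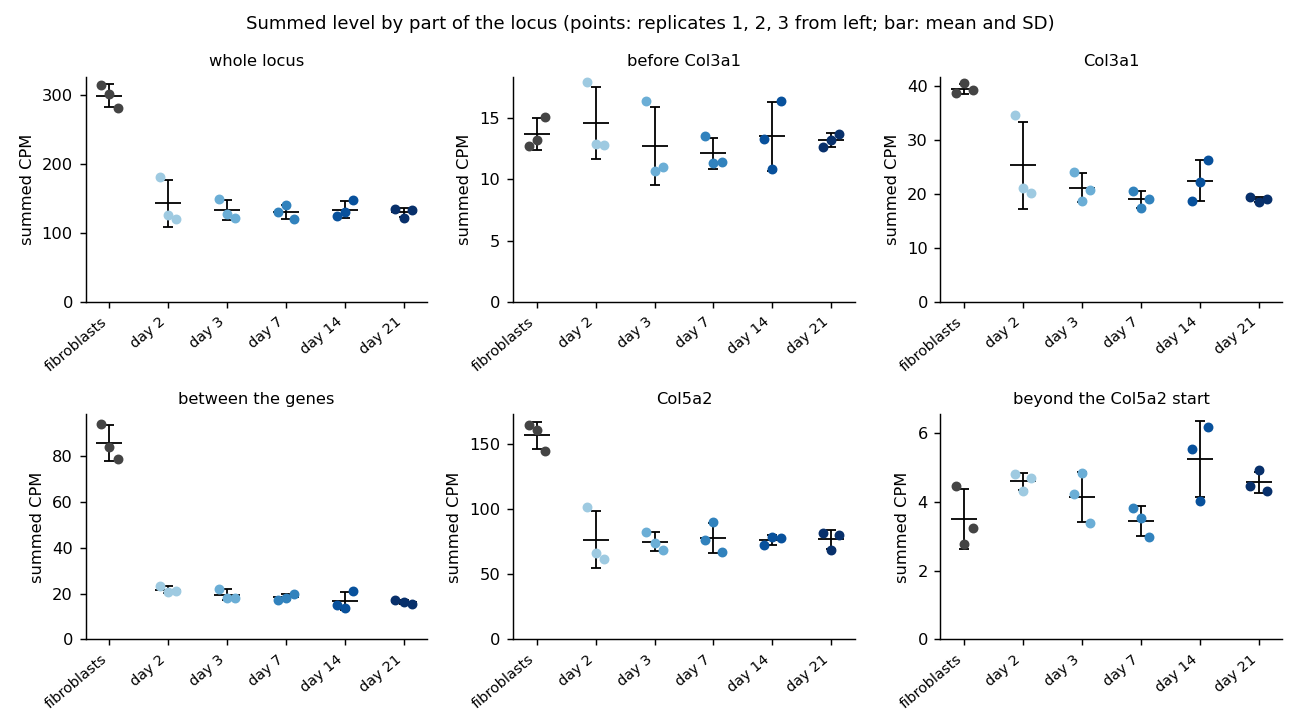
Summed CPM (vertical axis) of each library by group (horizontal axis) for the parts of the locus, with points for the replicates and bars for the mean and SD (n = 3). The fibroblast points lie above all GMT points over Col3a1, between the genes and over Col5a2, and among them before Col3a1.

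Of the 274 regions, 51 passed the filter on low counts and were tested, 4 before Col3a1, 10 over Col3a1, 10 between the genes, 26 over Col5a2 and 1 beyond its start. The others were narrow, with a median width of 309 bases against 1369 for those tested, and 33.2% of them were exactly 200 bases wide. They were not free of the difference, since their sum was 83.6 ± 7.94 CPM in fibroblasts, against 33.1 ± 4.54 CPM at day 2 and 34.1 ± 2.14 CPM at day 21. These are log2 ratios of -1.34 and -1.29, where all regions of the table that were not tested had -0.32 and -0.24.

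A region was called when its adjusted p in edgeR's quasi-likelihood test was under 0.05 over all 144810 regions tested. Against fibroblasts at day 2, 21 of 51 regions of the locus were called lower, where 8.09% of all tested regions were. At day 3 the count was 25, with 8.84% over all regions, and at day 7 also 25, with 12%. At day 14 it was 23, with 9.7%, and at day 21 it was 24, with 10.1%. With library totals alone the counts were 10, 17, 20, 16 and 14, and with no filter 7, 10, 16, 17 and 13. Shares over all regions were not counted under these 2 settings. Since this contrast chose the locus, nothing is read from these counts. No region of the locus was called higher at any of the 5 days by edgeR or by DESeq2, while 12.2, 13.2, 15.5, 12.8 and 13.3% of all tested regions were by edgeR at days 2, 3, 7, 14 and 21. At an unadjusted p under 0.05 the numbers higher were 2, 1, 0, 1 and 1. With library totals alone, 2, 1, 0, 1 and 1 were called higher, 1 was at day 14 without day 14 replicate 2, and 1 was at day 21 without the 2 libraries that stood apart. For the unadjusted threshold and these alternatives, shares over all regions were not counted. The median log2 difference of the 51 regions was -1.1, -1.24, -1.38, -1.25 and -1.26, and that of all tested regions lay between -0.0071 and 0.0681.

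The regions called lower at every day were 16 of 51, against 4.55% of all tested regions, and 21 were called at no day. These calls come from the contrast that chose the locus and are given as a description. Between the genes, 8 of 10 were called at all 5 days, from 45408145 to 45421465, and the other 2 regions, nearer to Col5a2, at none. Of the 51 tested regions, 11 passed the filter on low counts only with the fibroblast libraries, where they are high. This favours a fall in them without fixing the call. They were 3 of the 10 between the genes, all among the 8 called at all 5 days, 7 of the 26 over Col5a2 and 1 over Col3a1. Of the 11, 45483412 to 45484545 was called at no day and 45374928 to 45375576 at 1. Over Col5a2, 7 of 26 were called at all 5 days and 10 at none. Over Col3a1, only the region at the gene's far end, 45404511 to 45406993, was called at all 5 days, and it lies beside the stretch between the genes.

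**Figure D3:**
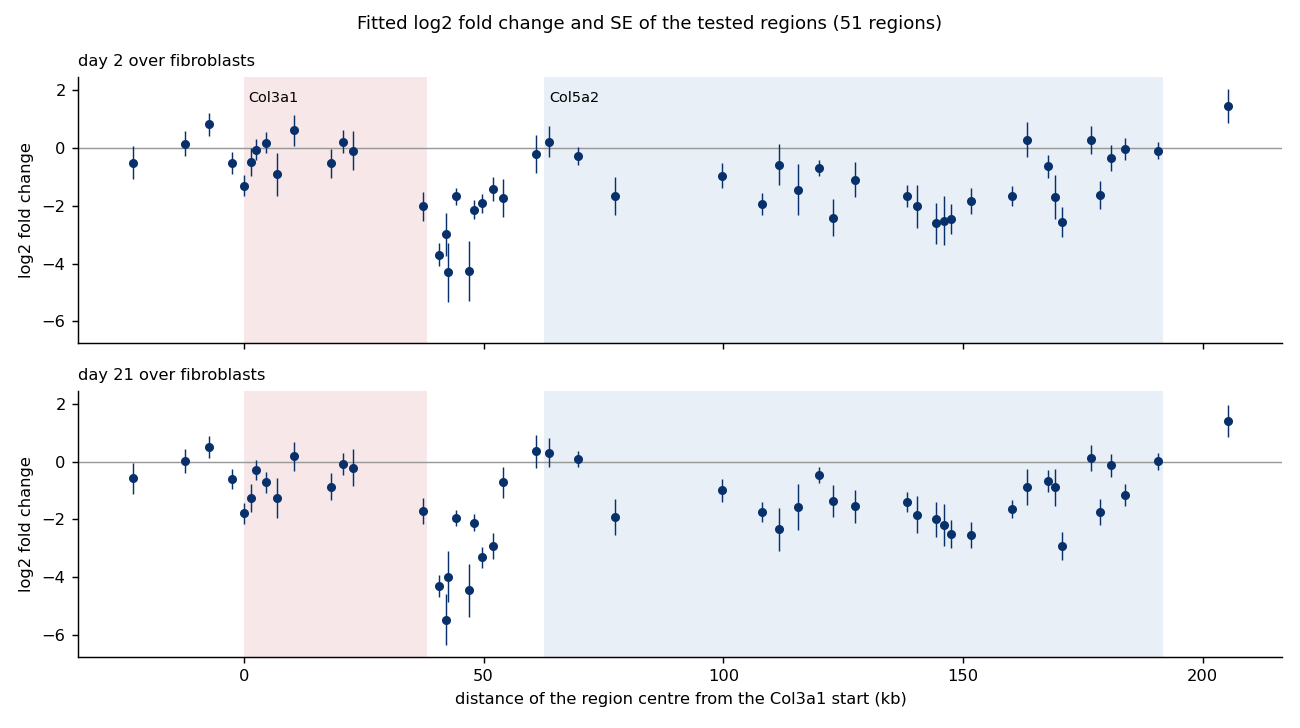
Fitted log2 fold change against fibroblasts with its SE (vertical axis) of the 51 tested regions by the distance of their centre from the Col3a1 start in kb (horizontal axis), at day 2 and day 21. The lowest points form a group between the genes in both panels, and the point at the Col5a2 start lies near 0.

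The region that stood out most in the earlier look, 45408145 to 45409956, lies just beyond the end of Col3a1. It held 16.3, 15.7 and 8.65 CPM in fibroblast replicates 1, 2 and 3, and 2.24, 0.693 and 1.02 CPM at day 2. At day 21 it held 0.78, 0.308 and 0.816 CPM, which were 7, 2 and 17 reads. Every GMT library, at 2.24 CPM or less, was below every fibroblast library. The log2 difference was -3.69 (SE 0.39) at day 2 and -4.3 (SE 0.38) at day 21, so the level was already low at day 2. Fibroblast replicate 3 was lower than replicates 1 and 2 here, and the day 21 value lay between -4.57 and -4.08 when single libraries were left out.

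The strongest region between the genes was 45411397 to 45413680, with 24.2, 22.7 and 27 CPM in fibroblasts. Its GMT libraries lay from 4.64 to 11.9 CPM, with a median of 7.1. Its level did not go as low as in the region before it, and the log2 difference was -1.67 (SE 0.29) at day 2 and -1.95 (SE 0.29) at day 21. The next region, 45415708 to 45417022, held 15.7, 13 and 16.2 CPM in fibroblasts and 1.28 to 4.45 in the GMT libraries, a log2 difference of -2.13 (SE 0.32) at day 2 and -2.11 (SE 0.3) at day 21. Day 21 differed from day 2 by -0.28 (SE 0.3) in the first and by 0.02 (SE 0.33) in the second, and in neither did GMT and fibroblast libraries overlap.

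Directly beside it, 45417023 to 45418902 held 13, 11.8 and 9.01 CPM in fibroblasts, 4.16, 2.62 and 2.85 at day 2, and 1, 1.69 and 0.96 at day 21. Its log2 difference from fibroblasts was -1.92 (SE 0.34) at day 2 and -3.31 (SE 0.36) at day 21. All 3 libraries of day 2 lay above all 3 of day 21, but the difference between these days, -1.4 (SE 0.4), missed the threshold (adjusted p = 0.0574, edgeR's quasi-likelihood test). The 3 narrowest tested regions of the same stretch, described after their values were seen, were close to the limit of detection in GMT cells. They passed the filter on low counts only with the fibroblast libraries, where they are high. Of these, 45410910 to 45411110 had 24, 10 and 4 reads in fibroblasts and 15 reads in the 15 GMT libraries together, 6 of which had none.

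**Figure D4:**
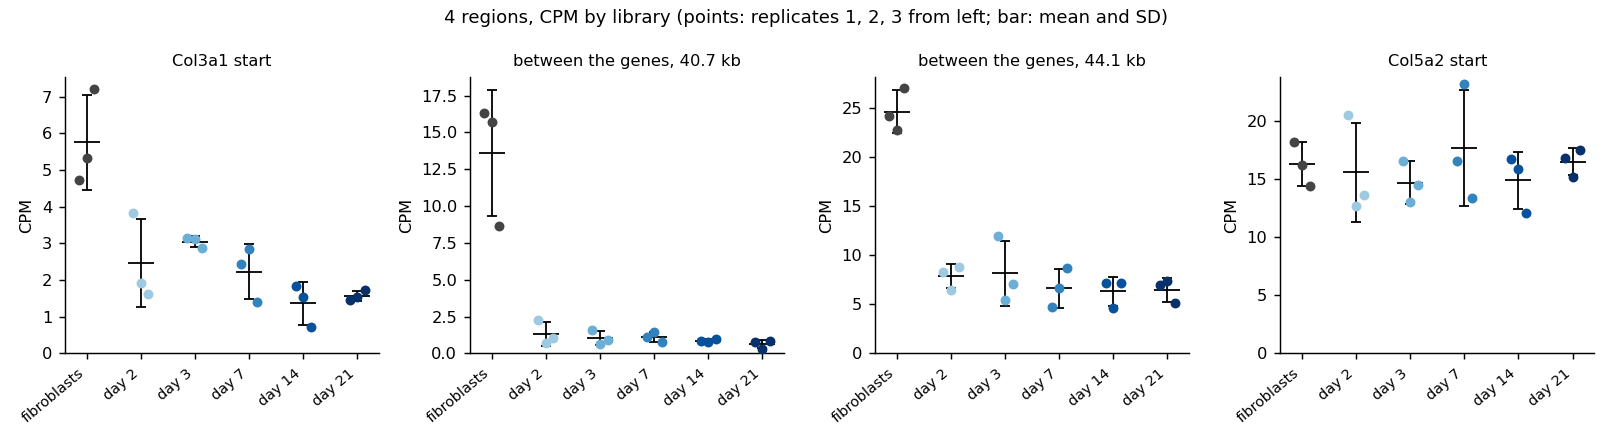
CPM (vertical axis) of each library by group (horizontal axis) for the Col3a1 start, 2 regions between the genes and the Col5a2 start, with points for replicates and bars for the mean and SD (n = 3). The first 3 are lower in all GMT libraries than in any fibroblast library, and the Col5a2 start is not.

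The starts of the 2 genes had unlike values, a contrast that was not tested itself. At the Col3a1 start, 45367783 to 45368881 held 4.74, 5.32 and 7.21 CPM in fibroblasts and 3.84, 1.92 and 1.63 at day 2. It held 3.16, 3.11 and 2.88 CPM at day 3, 2.44, 2.85 and 1.39 at day 7, 1.85, 1.55 and 0.713 at day 14 and 1.45, 1.54 and 1.73 at day 21. All 15 GMT libraries lay below the lowest fibroblast library. The log2 difference was -1.3 (SE 0.37) at day 2, -0.87 (SE 0.34) at day 3 and -1.78 (SE 0.36) at day 21. It was among the regions with the smallest adjusted p among GMT days, and the mean of days 14 and 21 against that of days 2 and 3, -0.74 (SE 0.27), did not pass (adjusted p = 0.0908, edgeR's quasi-likelihood test).

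At the Col5a2 start, 45557413 to 45560747 was the region with most counts in the locus. It held 18.2, 16.2 and 14.4 CPM in fibroblasts, 20.5, 12.7 and 13.6 at day 2, 16.6, 13 and 14.5 at day 3 and 16.6, 23.2 and 13.4 at day 7. It held 16.7, 15.9 and 12.1 CPM at day 14 and 16.8, 15.2 and 17.5 at day 21. The groups overlapped throughout, with log2 differences from fibroblasts of -0.1 (SE 0.29) at day 2 and 0.01 (SE 0.29) at day 21. The start of Col5a2 thus stayed within its SE of the fibroblast level at both days, while the sum over the whole gene was at 47.9 to 49.5% of that of fibroblasts. With library totals in place of TMM scaling, the same region was at 0.56 at day 21.

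Within Col5a2, another strong region also lay near the fibroblast level, and a second was lower but called at no day. The region 45436478 to 45439502, near the gene's far end, held 6.2, 6.71 and 5.77 CPM in fibroblasts and 4.07 to 7.68 in the GMT libraries (log2 difference 0.09, SE 0.28, at day 21). The second, 45486522 to 45490338, held 10.9, 10.6 and 11.9 CPM in fibroblasts and 5.93 to 11.3 in GMT libraries, with a median of 8.59. Its log2 differences were -0.69 (SE 0.29) at day 2 and -0.46 (SE 0.27) at day 21. With library totals alone the day 21 values of these 2 regions were 0.68 and 0.06. In contrast, 45526401 to 45530744 held 8.94, 14.6 and 6.49 CPM in fibroblasts and 1.83 to 5.12 in GMT libraries, with log2 differences of -1.67 (SE 0.34) at day 2 and -1.64 (SE 0.31) at day 21. The last value was -1.31 without fibroblast replicate 2, its highest library.

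Among the 7 regions of Col5a2 lower at all 5 days, 5 are neighbours among the tested regions, from 45512116 to 45530744, a stretch described after its values were seen that ends with the region just given. In it, 45519193 to 45521114, held 4.74, 4.16 and 4.32 CPM in fibroblasts and at most 2.24 CPM in any GMT library, with -1.84 (SE 0.45) at day 2 and -2.53 (SE 0.44) at day 21. Its neighbour 45515265 to 45516533 held 4.1, 2.54 and 3.6 CPM in fibroblasts and at most 1.22 in the GMT libraries. The regions 45475065 to 45478044 and 45538073 to 45539897 also had no overlap, with fibroblast means of 6.8 ± 1.19 and 3.52 ± 0.651 CPM and day 21 means of 2.04 ± 0.369 and 0.503 ± 0.147. Of the 7, 45512116 to 45513231, 45513931 to 45514773 and 45538073 to 45539897 passed the filter only with the fibroblast libraries, where they are high. Nothing is read from their calls or their lack of overlap. Without these, 45475065 to 45478044 still lay apart from the other regions of Col5a2 called at all 5 days. Between them was 45486522 to 45490338, called at no day. This is a description, since the contrast with fibroblasts chose the locus.

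Over Col3a1, regions behind the start were mixed. The narrow regions 45369580 to 45370219 and 45374928 to 45375576 were called lower at day 7 alone. Their log2 differences were -1.42 (SE 0.5) and -2.41 (SE 0.78) then and -1.25 (SE 0.49) and -1.26 (SE 0.7) at day 21. At day 3 they were -1.12 (SE 0.49) and -1.79 (SE 0.76), and at day 14 -0.76 (SE 0.49) and -2.01 (SE 0.79). The calls thus do not show a fall limited to day 7. The second of these regions passed the filter only with the fibroblast libraries. The region 45372244 to 45373862 held 3.1, 2.54 and 4.32 CPM in fibroblasts, 5.44, 3.23 and 2.85 at day 2 and 2.56, 1.23 and 1.92 at day 21, with log2 differences of 0.18 (SE 0.36) and -0.72 (SE 0.36). At the gene's far end, 45404511 to 45406993 held 4.1, 4.4 and 2.52 CPM in fibroblasts and 1.25 ± 0.659 at day 21 (log2 difference -1.71, SE 0.45). Its day 14 replicate 3, at 3.09 CPM, lay within the fibroblast range.

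At days 2, 3, 7, 14 and 21, 42, 41, 44, 43 and 42 of the 51 tested regions were below the fibroblast level. None of the rest was called higher. The share of all tested regions below that level was not counted, and their median lay between -0.0071 and 0.0681. This contrast chose the locus, and 11 of the 51 passed the filter only with the fibroblast libraries, so nothing is read from these counts. Examples of regions above the fibroblast level follow. Upstream of Col3a1, 45360474 to 45361818 held 1.82, 3.01 and 1.44 CPM in fibroblasts and 1.89 to 6.4 in the GMT libraries (0.82, SE 0.4, at day 2 and 0.5, SE 0.39, at day 21). The 6.4 CPM belonged to day 2 replicate 1. Beyond the Col5a2 start, 45572836 to 45574366, singled out after its values were seen, held 0.73, 0.231 and 0.36 CPM in fibroblasts, only 10 reads in all, and 0.464 to 1.83 CPM in the GMT libraries. Its log2 differences ran from 1 (SE 0.57) at day 7 to 1.45 (SE 0.58) at day 2.

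Comparisons among the GMT days use no fibroblast library. Their levels were known when the locus was chosen, and day 21 took part in that choice. Between neighbouring times, no region of the locus was called by edgeR or DESeq2, with 0% of all tested regions called by edgeR for day 3 against day 2, 0.00829% for day 7 against day 3, 0% for day 14 against day 7 and 0% for day 21 against day 14. At an unadjusted p under 0.05 there were 1, 5, 1 and 1 of 51. For day 21 against day 2 the count of called regions was also 0 by both tools, with 1.44% of all tested regions called by edgeR. This count was 1 without day 21 replicate 1. At an unadjusted p under 0.05 there were 6 of 51. Shares of all tested regions at that unadjusted threshold were not counted, so nothing is read from the numbers that passed it. For these 5 comparisons the median log2 difference of the 51 regions lay between -0.13 and 0.01.

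With days 14 and 21 set against days 2 and 3, 6 libraries on each side, 3 of 51 regions were called lower, where 3.66% of all tested regions were. None was called higher by edgeR or DESeq2, where 2.5% of all were by edgeR. At an unadjusted p under 0.05, 3 were higher, and the share of all tested regions at that threshold was not counted. The count of 3 called lower, or 5.88%, is near the background and is not a result about the locus. DESeq2 called 2 lower. The median over the 51 regions was -0.05, against 0.0319 over all tested regions.

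The lowest adjusted p belonged to 45551466 to 45552751, a region inside Col5a2 near its start. It held 4.01, 3.93 and 3.6 CPM in fibroblasts, 7.04, 2.77 and 2.85 at day 2 and 6.07, 4.5 and 3.84 at day 3. It then held 1.98, 1.71 and 3.18 CPM at day 7, 1.98, 1.24 and 1.66 at day 14 and 2.12, 2.31 and 1.2 at day 21. Replicates 2 and 3 of day 2 lay below all fibroblast libraries and replicate 1, which stood apart, above them, and day 3 lay within or above their range. Every library of days 14 and 21 lay below every library of days 2 and 3. The log2 difference was -1.27 (SE 0.26, adjusted p = 0.000962, edgeR's quasi-likelihood test). It was -0.98 with adjusted p = 0.0116 without the 2 libraries that stood apart.

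Between the genes, 45419103 to 45421465 also fell late. It held 5.75, 4.63 and 4.68 CPM in fibroblasts, 3.52, 1.62 and 1.22 at day 2 and 2.64, 2.57 and 1.8 at day 3. It held 1.32, 0.457 and 1.29 CPM at day 7, 0.529, 0.927 and 1.9 at day 14 and 1.45, 0.615 and 0.24 at day 21. It was thus below fibroblasts at day 2 and lower again later, with some overlap between early and late libraries. The log2 difference was -1.38 (SE 0.35, adjusted p = 0.00966, edgeR's quasi-likelihood test). The call was lost without day 14 replicate 1 (-1.11, adjusted p = 0.0778) and without day 21 replicate 3 (-1.03, adjusted p = 0.0818), and the count of 3 became 1 without day 14 replicate 1.

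The third, 45479641 to 45480430 in Col5a2, rests on 68 reads in the 15 GMT libraries. It held 1, 2.08 and 1.08 CPM in fibroblasts, 1.28, 0.539 and 1.22 at day 2, 1.32, 0.536 and 0.752 at day 3, and at most 0.464 CPM in any library from day 7 on, 2 of which had no read. The log2 difference was -1.98 (SE 0.59, adjusted p = 0.0287, edgeR's quasi-likelihood test). The call was lost without day 2 replicate 1, day 2 replicate 3, day 3 replicate 3, day 14 replicate 1, day 21 replicate 1 or day 21 replicate 2, with adjusted p from 0.0506 to 0.14, and without both libraries that stood apart (adjusted p = 0.0699). DESeq2 gave no adjusted p for it.

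**Figure D5:**
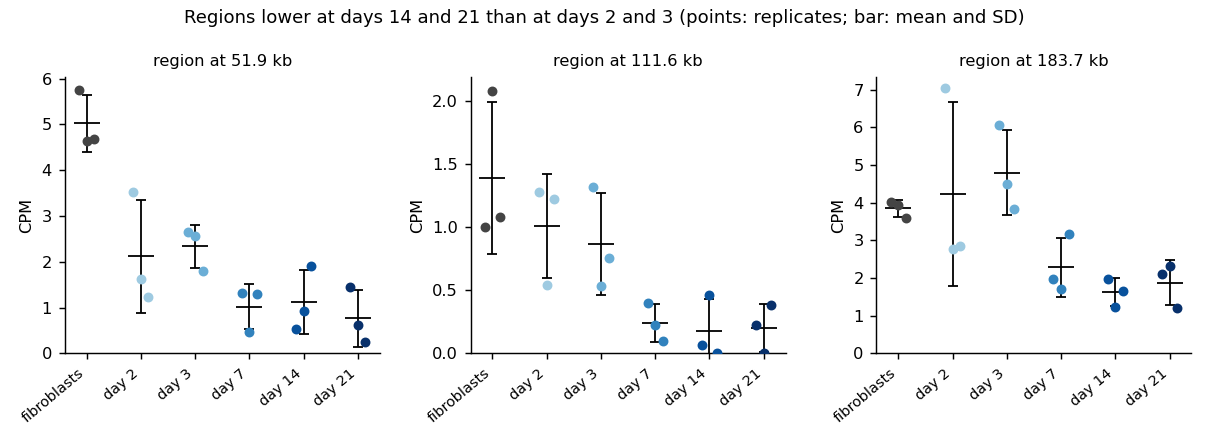
CPM (vertical axis) of each library by group (horizontal axis) for the 3 regions called lower at days 14 and 21 than at days 2 and 3, with points for replicates and bars for the mean and SD (n = 3). In the regions 45551466 to 45552751 and 45479641 to 45480430 all points of days 14 and 21 lie below all points of days 2 and 3, and in 45419103 to 45421465 some overlap.

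The members were compared with the locus sum over the 18 libraries, by Pearson r of log2 CPM. These points share their libraries and form 2 clusters, fibroblasts and GMT cells, so r measures mainly the step between them. The median r was 0.798 between the genes (10 regions, -0.0952 to 0.974), 0.655 over Col5a2 (26 regions), 0.484 over Col3a1 (10 regions) and 0.14 before Col3a1 (4 regions). Members between the genes thus followed the step of the whole locus most closely, as parts of the sum they were compared with.

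Elsewhere, among 60959 candidate regions with a median r of -0.243, the region with the pattern most like that of the locus was on the same chromosome at 96046145 to 96047207 (r = 0.955 over 18 libraries), with 14.8 CPM on average in fibroblasts and 1.1 to 1.42 at the 5 days. The next 4 were on chromosome 14 at 11199839 to 11202307 (r = 0.952) and at 14522137 to 14525148 (r = 0.952), on chromosome 17 at 13939073 to 13940773 (r = 0.952) and on chromosome 12 at 120351942 to 120353047 (r = 0.951). Their fibroblast means were 8.46, 12, 13.8 and 7.24 CPM in that order, and their day 21 means were 2.72, 2.02, 3 and 1.76. Like the locus, all 5 were low from day 2 on, a likeness for which they were chosen.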

How the data were processed

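Raw counts per region, whole numbers as deposited by the authors, were used for 18 libraries. Per the submitters' processing notes, the tools were Bowtie2, Picard, MACS2 and edgeR and the build was mm9. How these were set, and on which libraries peaks were called, is not given in the sources used here. An incomplete last line of the table was left out. Coordinates are those of the deposited table. No annotation or genome of build mm9 was used, so exons, introns, gene lists and marker genes of cell types were not examined, and gene limits are those of the rule.

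Regions were kept by edgeR's filterByExpr (minimum count 10, minimum total 15), which left 144810, 10.4% of 1393120. All 18 libraries entered 1 quasi-likelihood fit (edgeR 4.0.16 in R 4.3.3, glmQLFit with robust estimation, glmQLFTest, two-sided) with a mean per group, TMM scaling and 12 residual degrees of freedom. The common biological coefficient of variation was 23.8%. p-values were adjusted by Benjamini-Hochberg over all tested regions at 0.05. Low counts limit single regions, and no molecular identifiers mark separate molecules. Sums are of CPM over regions with no p, and a region belongs to the part that holds its midpoint. SE and log2 fold change are fitted values.

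The members and lists were chosen with earlier results of these data known. Regions named were those at each gene start, the 6 with highest mean CPM, the 6 lowest and 2 highest at day 21 against fibroblasts whose mean log2 CPM was 1 or more, up to 6 with the smallest adjusted p among GMT days, and those at each edge. Elsewhere the 5 regions with the highest Pearson r, at least 1 Mb away, were named (log2 CPM, prior count 2). The labels state biological replicates without naming cultures, so p-values measure the spread between these libraries. Replicate numbers were not used as pairs in the main fit, and whether they mark pairs was not settled. Alternatives were RLE size factors, library totals, totals without the region with most counts, no filter, DESeq2 1.42.0, a replicate block, a threshold of 0.01 and leaving out libraries. The test was checked on simulated data.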

Additional observations from a re-analysis of the deposited data

Results flagged for a closer look

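Accessibility differed between early and late GMT cells, by a test of that difference, at 3 of 51 tested regions of the locus on chromosome 1, or 5.88%, where 3.66% of all tested regions were called lower. This is near the background, and day 21 took part in choosing the locus. The mean log2 level of days 14 and 21 minus that of days 2 and 3 was -1.27 at 45551466 to 45552751, -1.38 at 45419103 to 45421465 and -1.98 at 45479641 to 45480430. Each was below its early level, and the first, inside Col5a2 near its start, was not below fibroblasts at day 3 (log2 difference 0.23, SE 0.35). Over the alternatives in which the test could be run, adjusted p ran from 0.000455 to 0.205 for the first, from 0.00185 to 0.304 for the second and from 0.0118 to 0.367 for the last. It was under 0.05 in 18 of 19, 16 of 19 and 9 of 18 of them. The last of the 3 had the fewest reads.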

How the results depend on the processing

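No alternative run turned the direction of the locus sum, of the late differences given or of the named regions called lower at day 21. The same held at day 21 for the sums of Col3a1, of Col5a2 and between the genes. These part sums were not run under the alternatives at the other days. Sums before Col3a1 and in the flanks, near the fibroblast level, did turn with library totals alone (at day 21 from -0.05 to 0.39 before Col3a1 and from -0.31 to 0.15 on the higher side). With library totals alone, the median of all tested regions was 0.63, 0.51, 0.3, 0.58 and 0.66 at days 2, 3, 7, 14 and 21 against fibroblasts, and the log2 ratio of the locus sum was -0.51, -0.73, -1.05, -0.8 and -0.71. The day 21 ratio was then -1.88 between the genes, -0.57 over Col3a1 and -0.53 over Col5a2. Regions called lower were 10 at day 2 and 14 at day 21, and those called higher 2, 1, 1 and 1 at days 2, 3, 14 and 21. The Col3a1 ratio at day 21 was -1.1 with RLE size factors and -0.82 over tested regions only, where the Col5a2 ratio was -0.84. With no filter, all 274 regions could be called and the median of the regions tested otherwise moved to 0.34, 0.47, 0.55, 0.36 and 0.52. Then 7, 10, 16 and 13 were called lower at days 2, 3, 7 and 21, and 0 in the late against early comparison. With totals without the region with most counts, 1 was called for day 21 against day 2. Without day 2 and day 3 replicate 1, 1 was higher at day 21. The cause of these changes was not tested. Shares of all tested regions called were not counted under these settings or with single libraries left out.

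Leaving out single libraries gave 17 to 21, 18 to 25, 20 to 23, 18 to 24 and 19 to 22 regions lower at days 2, 3, 7, 14 and 21, and 0 higher except 0 to 1 at day 14. The ranges of the locus ratio were -1.25 to -0.94, -1.23 to -1.12, -1.25 to -1.14, -1.23 to -1.08 and -1.23 to -1.13. At day 21 they were -2.43 to -2.32 between the genes, -1.07 to -1.01 over Col3a1 and -1.06 to -0.93 over Col5a2. Among GMT days 0 to 1 were called for day 21 against day 2, 1 to 4 for late against early (1 without day 14 replicate 1) and 0 for neighbouring times. The late difference of 45417023 to 45418902 (-0.88, adjusted p = 0.0767 by edgeR) passed without day 3 replicate 2 (-1.08, adjusted p = 0.0287) and with totals without the region with most counts (-0.97, adjusted p = 0.0499).

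Between groups, 2 of 45 correlations of same-numbered libraries were over 0.1 (-0.157 to 0.321), and 6 of 90 of differently numbered ones (-0.294 to 0.22). These counts cannot show whether particular libraries belong together. With the replicate number as a block, 21, 25, 25, 22 and 24 regions were lower, 0 higher and 3 lower late. The late differences were then -1.33, -1.46 and -2.01, with adjusted p of 0.000533, 0.00566 and 0.0331 by edgeR. Counting limits the narrowest regions, since a single read was worth up to 0.36 CPM.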
